A study of Bos taurus with 6 samples.

Results

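Ribosomal protein genes were taken as the 3 kb windows on chromosomes 1 to 29 whose gene label was RPL or RPS followed by digits, with at most 1 letter (A, L, X or Y) and 1 further digit after them, so that the RPS6K kinases stayed out. The rule found 180 of the 902984 windows counted in each library, and 335024 windows on these chromosomes carried a gene label. The 180 windows held 73 gene symbols at 76 places, of 23986 symbols at 24054 places in all. Small subunit genes (RPS) held 31 of the places and large subunit genes (RPL) 45. Most were short, with 12 places of 1 window, 40 of 2 windows, 17 of 3 windows and 7 longer ones, up to 8 windows for RPS14. They lay on 26 chromosomes, with 10 places on chromosome 18 and 6 on chromosome 19.

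Ribosomal proteins make up the small and large subunits of the cytoplasmic ribosome. Their genes are housekeeping genes, transcribed in nearly every cell, and in mammals most of them start in CpG-rich promoters that stay free of methylation. Their transcripts begin with a run of pyrimidines, the TOP motif, which they share with several translation factors. Mammalian genomes also hold many processed copies of these genes, so that reads from one place can resemble another.

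The 6 libraries came from dermal fibroblast cultures of 3 Holstein heifers, each sampled at 5 and at 16 months of age, with 1 library for each animal and age. All cultures were at passage 5 and were untreated, and the study had picked these animals as mid-level responders to LPS from a larger collection. MIRA-Seq sequences sonicated DNA that was captured through its methylated CpGs. The reads of a window rise with its methylation and also with its number of CpG sites, and those cannot be told apart here. No mRNA was measured in these libraries, and the identity of the cells was not checked with markers.

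The libraries held 19.9 to 43.6 M counted reads. Signal is given as RPKM, the reads of a window per kilobase and per M matched reads of its library, on coordinates of the UMD v3.1 genome. Where values of single libraries are listed, those of 5 months come before those of 16 months, each in the order of animals 1, 2 and 3. The 5-month culture of animal 1 and the 16-month culture of animal 2 were the shallowest, with 32.4% and 25.5% of all windows at 0 reads against 6.70% to 16.8% in the other 4 libraries, and gave the lowest medians below. The median first window of the ribosomal protein genes held 2.5 to 10 reads, and 28 of the 76 first windows had fewer than 10 reads in every library. Small differences at single starts were therefore not detectable at this depth.

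The gene labels were compared with the RefSeq gene table, where all 73 symbols were found as protein-coding genes. At 72 of the 76 places at least 1 neighbouring gene was the same as in that table. The 4 others were RPL19 on chromosome 7, RPL36A on chromosome 15, RPS27 on chromosome 17 and RPS15A on chromosome 18, where no neighbouring gene was shared. Whether these 4 places hold the named genes or copies of them was not tested. They were kept in the counts below. RPL19, RPS27 and RPS15A were each labelled at 2 places, and both places are kept apart below by their chromosome.

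In the median, starts of ribosomal protein genes were about as low in signal as starts of other genes, but their surroundings were higher. The median first window, that is the first window carrying the label on the strand of the gene, held 0.0474 RPKM against 0.0491 RPKM for all labelled genes. The upper quartiles lay further apart, at 0.0895 and 0.156 RPKM. Among genes of at most 3 windows the medians were 0.0477 and 0.0592 RPKM. Library by library the ribosomal protein median was 0.0256, 0.0611 and 0.0506 RPKM at 5 months and 0.0440, 0.0277 and 0.0684 RPKM at 16 months. The ages overlapped, and the low values were those of the 2 shallow libraries. The study used 0.5 RPKM to split high from low methylation of promoters and of gene bodies. Its promoters were placed around the transcription start, so a first labelled window is not the same region. Of the first windows, 5 of 76 (6.58%) were above 0.5 RPKM against 11.1% of all labelled genes. Summed over the whole gene, 9 of 76 (11.8%) were above it against 17.2%.

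Flanks were taken as the second to sixth window upstream of the first window and the second to sixth beyond the last, 10 windows in all, averaged for each gene. The median flank was 0.196 RPKM for the ribosomal protein genes and 0.0785 RPKM for all labelled genes. Mitochondrial ribosomal proteins (74 places), encoded in the nucleus and built into a separate ribosome, had a median flank of 0.186 RPKM and a median first window of 0.0475 RPKM. Proteasome subunits (39 places), another housekeeping family, had 0.211 and 0.0396 RPKM. The 8 ribosomal proteins whose names fall outside the rule had 0.198 and 0.0471 RPKM. High flanks were not shared by all related lists. Translation factors with TOP transcripts (21 places) had a median flank of 0.0963 RPKM and a median first window of 0.0243 RPKM. Ribosome biogenesis factors (41 places) had 0.114 and 0.0338 RPKM. The flanks of the ribosomal protein genes were also richer in genes, with 57.6% of flank windows carrying a label against 39.4% around all labelled genes. How far gene density or CpG content set the flank signal was not tested.

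**Figure D1:**
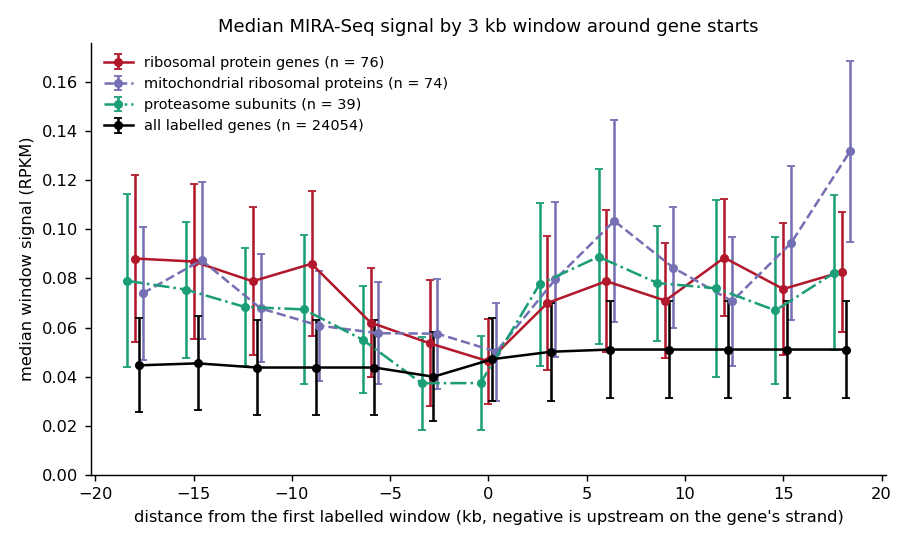
Median signal (RPKM) of 3 kb windows by distance in kb from the first labelled window, for ribosomal protein genes, mitochondrial ribosomal proteins, proteasome subunits and all labelled genes. Points are means of the 6 library medians and bars are SD over libraries. The ribosomal protein genes fall from 0.0881 RPKM at 18 kb upstream to 0.0462 RPKM at the first window and return to 0.0700 RPKM in the window after it, while all labelled genes stay between 0.0400 and 0.0510 RPKM.

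A mean over 10 windows is pulled up by single high windows, so medians were also followed window by window. The ribosomal protein median, averaged over libraries, was 0.0881 ± 0.0341 RPKM (SD, n = 6) in the sixth window upstream, 0.0536 ± 0.0256 in the window just upstream, 0.0462 ± 0.0174 in the first window and 0.0700 ± 0.0272 in the next. The medians of all labelled genes were 0.0446, 0.0400, 0.0471 and 0.0501 RPKM at the same positions. The dip of the ribosomal protein genes was thus shallower in medians than in flank means. These SDs include shifts in level shared by all genes of a library, so they do not measure the spread of the dip. The dip in medians was not computed library by library.

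Gene by gene, the first window was compared with the flanks by edgeR's quasi-likelihood test with the library as a block and Benjamini-Hochberg adjustment over all labelled genes. Calls needed an FDR below 0.1 together with at least a 2-fold difference. Of 75 ribosomal protein genes tested, 49 had a lower first window (65.3%, where 45.6% of all 21976 genes tested were called lower). A higher first window was called for 4 of them (5.33%, background 17.2%), and 22 were not called. These counts include the places with no shared neighbour in RefSeq. Of those, RPS27 on chromosome 17 and RPS15A on chromosome 18 were called lower and RPL36A higher, and RPL19 on chromosome 7 was not called. RPS12 did not reach the minimum of 1 CPM in 3 libraries and was not tested. The median log2 ratio of first window over flanks was -1.63, against -0.79 for all genes tested.

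The 6 libraries came from 3 animals, and with both ages summed for each animal 48 genes were called lower (64.0%, against 45.0% of all) and 4 higher (5.33%, against 17.1%). The count depended on which flank windows were used. With flank windows that carried another gene's label left out, 48 ribosomal protein genes could be tested, and 22 of them (45.8%) were lower against 37.3% of all genes tested, while 8 (16.7%) were higher against 25.9%. With the downstream flank alone, 41 of 66 (62.1%) were lower against 49.7% and 7 (10.6%) higher against 19%.

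Read without a test, the first window was below the flanks in all 6 libraries in 47 of 76 places (61.8%, against 43.5% of all labelled genes), and above them in all 6 in 7 places (9.21%, against 19.9%). Among genes with at least 5 labelled flank windows, 33 of 48 ribosomal protein genes (68.8%) were called lower against 51.5% of all genes. Among those with at most 4, the counts were 16 of 27 (59.3%) against 40.4%. Among genes of at most 3 windows they were 43 of 68 (63.2%) against 38.1%.

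Small subunit genes were called lower in 23 of 30 cases (76.7%) and large subunit genes in 26 of 45 (57.8%), a difference that was not tested. Related lists gave similar counts. A lower first window was called for 46 of 74 mitochondrial ribosomal proteins (62.2%), 27 of 39 proteasome subunits (69.2%), 16 of 21 translation factors with TOP transcripts (76.2%) and 22 of 40 ribosome biogenesis factors (55%). Of 8 ribosomal proteins whose names fall outside the rule, such as the stalk protein RPLP0 and the laminin receptor RPSA, 7 were called lower.

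**Figure D2:**
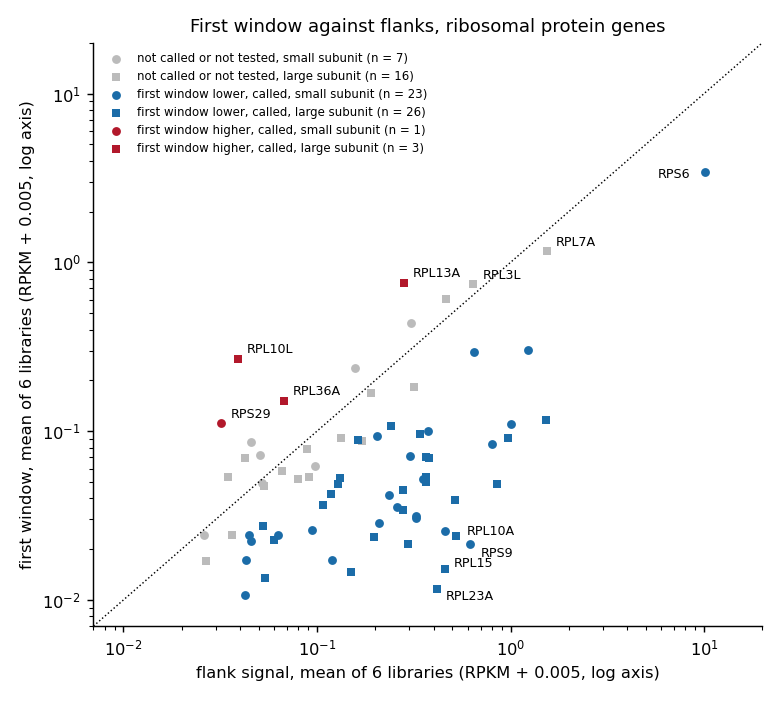
Mean signal of the first window (y axis) against the mean signal of the flanks (x axis) for the 76 places, both as RPKM + 0.005 on log axes, means of 6 libraries. Circles are small and squares large subunit genes, blue and red mark genes called lower and higher, grey marks genes not called and RPS12, and the dotted line is equality. Of the genes called, 49 lie below the line and 4, RPL10L, RPS29, RPL13A and RPL36A, above it.

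The largest differences below the flanks were those of RPL23A, RPL15, RPS9 and RPL10A. RPL23A, a large subunit protein beside the exit of the nascent chain, had 0, 0 and 1 reads in its first window (chr19:20703275-20706274) at 5 months and 1, 1 and 3 reads at 16 months. Its flanks held 0.409 ± 0.0836 RPKM (SD, n = 6) against 0.00666 ± 0.00765 in the first window, a log2 ratio of -5.87 (SE 0.43, adjusted p = 7.87e-09 in edgeR's quasi-likelihood test). All 10 of its flank windows carried the labels of other genes. The ratio was -6.89 without animal 3 and -4.79 when the window upstream was added to the first window.

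RPL15 (chr27:41932767-41935766) had 0, 1, 4, 0, 0 and 5 reads in its first window. The ratio to its flanks, at 0.454 ± 0.0393 RPKM, was -5.37 (SE 0.46) on the log2 scale. RPS9 (chr18:63388698-63391697), a small subunit protein needed early in subunit assembly, had 0 to 6 reads and a log2 ratio of -5.13 (SE 0.40). In both genes every library lay below its own flank value, but the sizes moved with the windows and libraries used. RPL15 had a log2 ratio of -7.95 without animal 3 and -3.47 with the window upstream added. RPS9 had -2.48 with flank windows of other genes left out and -1.03 with the window upstream added, which carried the label TSEN34 and held 0.557 RPKM.

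RPL10A (chr23:9392493-9395492) had 1 to 6 reads and a log2 ratio of -4.62 (SE 0.34), but its first labelled window began with number 4 in the files' column of coding exons. That column has no definition in the files, and it was read here as the exon number. On that reading the start lies in the upstream window, which carried the label FANCE and had 0.0842 ± 0.0449 RPKM, against 0.516 ± 0.152 RPKM in the flanks. The ratio to the flanks was -2.62 with the upstream window taken as the start, -2.81 against the upstream flank alone and -5.38 against the downstream one. RPL7A and RPS18 shared this pattern, with number 3 in the first labelled window and the label of MED22 or VPS52 on the window before. The window before RPL7A held 0.132 ± 0.0661 RPKM against 1.16 ± 0.388 RPKM in its labelled window, and the window before RPS18 held 0.0320 ± 0.0208 against 0.290 ± 0.126 RPKM. In RPL7A and RPS18 the labelled window was the brighter of the pair.

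RPL10L, RPS29, RPL13A and RPL36A were called in the other direction. RPL10L, an intronless copy of the X-linked RPL10 known for its expression in testis, had 9, 27 and 81 reads in its single window (chr10:39733601-39736600) at 5 months, then 57, 17 and 66 at 16 months. The RPKM values were 0.0923, 0.174 and 0.431, then 0.279, 0.157 and 0.451. Both cultures of animal 3 were the highest at either age. The flanks held 0.0340 ± 0.0137 RPKM and none of their windows carried a gene label. The log2 ratio was 2.93 (SE 0.35, adjusted p = 1.42e-06 in edgeR's quasi-likelihood test), and the first window was above the flanks in all 6 libraries. It was 4.26 against the upstream flank alone and 2.26 against the downstream one.

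RPS29 (chr10:42670601-42673600), a small zinc-finger protein of the small subunit, had 13, 16, 19, 32, 4 and 16 reads in its first window and 0.0271 ± 0.0128 RPKM in its flanks. Its log2 ratio was 1.99 (SE 0.33). RPL13A (chr18:56394398-56397397), known outside the ribosome for silencing the translation of inflammatory transcripts, had 0.754 ± 0.307 RPKM against 0.276 ± 0.0686 in its flanks, a log2 ratio of 1.37 (SE 0.22) that was 3.40 with flank windows of other genes left out. Its window 2 fell to 0.0859 ± 0.0458 RPKM, so its signal was highest at the labelled start.

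RPL36A on chromosome 15 (chr15:54466357-54469356) had 15, 31, 20, 31, 14 and 20 reads and a log2 ratio of 1.22 (SE 0.26). It is a place with no shared neighbour in the RefSeq table and with no coding exon number in its label, and the symbol also stood on the X chromosome. Both RPL13A and RPL36A missed the 2-fold threshold when the window upstream was added to the first window, at log2 ratios of 0.71 and 0.59. RPL36A also missed it against the upstream flank alone, at 0.97.

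**Figure D3:**
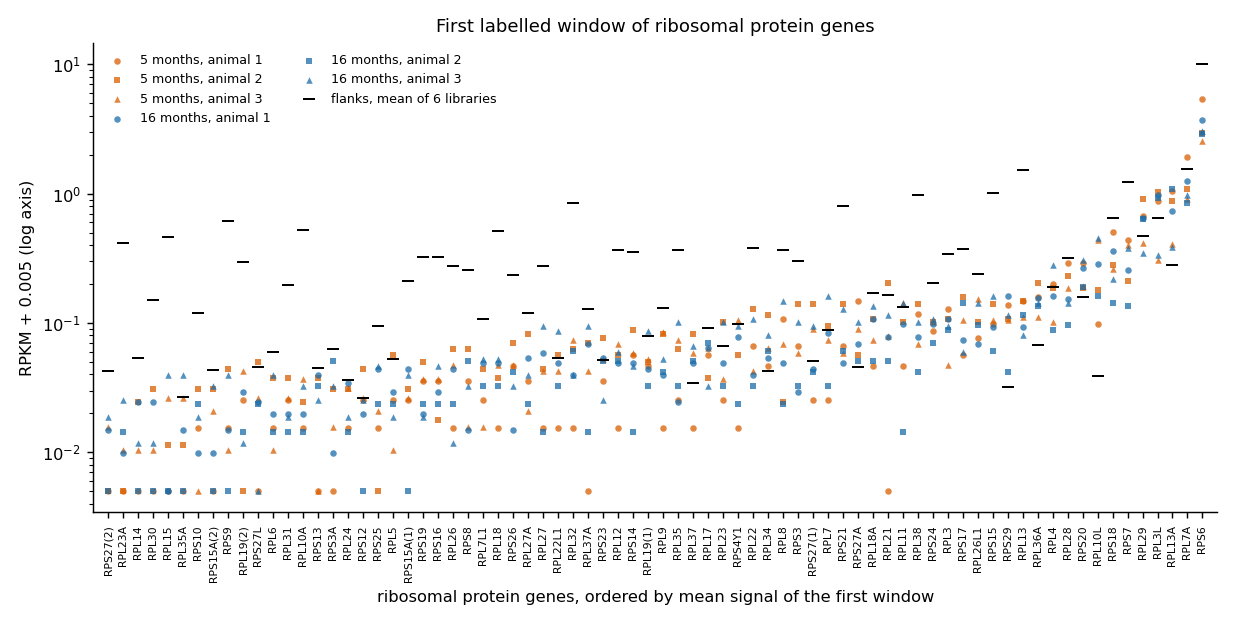
Signal of the first labelled window for 74 of the 76 places, ordered by mean, as RPKM + 0.005 on a log axis. Colours are ages and symbols are animals, 1 point for each of the 6 libraries, and black dashes are the mean flank signal. Places labelled more than once are numbered in the order of the chromosomes. RPS6 stands highest at 2.55 to 5.39 RPKM, and its points of the 2 ages overlap.

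Among the 8 brightest first windows were those of RPS6, RPL7A, RPL13A, RPL3L, RPL29, RPS7 and RPS18. RPS6, the substrate of the S6 kinases, had 525, 458 and 479 reads in its first window (chr8:24924987-24927986) at 5 months and 754, 311 and 445 at 16 months. This gave 5.39, 2.95 and 2.55 RPKM at 5 months and 3.69, 2.87 and 3.04 RPKM at 16 months. The ages overlapped, and the window was above 99.8% of first windows of all labelled genes.

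The signal of RPS6 stood at the edge of a much brighter stretch. The window just upstream, which carried no gene label, had 27.8 ± 9.27 RPKM (SD, n = 6), and 15 windows in a row upstream of the label, 45 kb in all (chr8:24879987-24924986), were above 5 RPKM with means of 6.07 to 42.1. In the other direction, window 2 of RPS6 held 0.0236 ± 0.0172 RPKM. Within the first window, the deepest single base had a depth of 0.458 to 1.00 times the number of reads in the window. Other well-covered windows of these genes had a median of 0.321 for the highest of their libraries. Repeats, PCR copies and reads counted in the bright window next to it were not tested as a source. With upstream flanks of that size, RPS6 was called lower than its flanks, at a log2 ratio of -1.57 (SE 0.16).

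**Figure D4:**
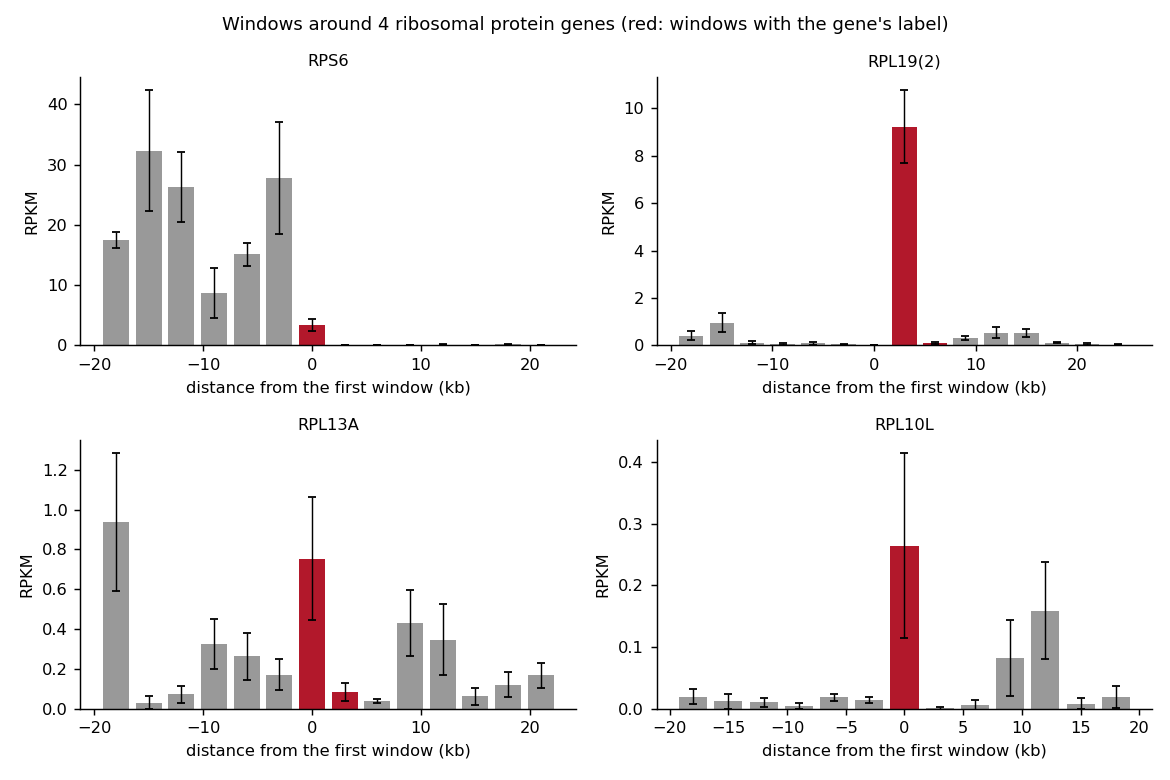
Signal (RPKM) of the 3 kb windows around RPS6, RPL19 on chromosome 19 (named RPL19(2)), RPL13A and RPL10L, by distance in kb from the first window on the strand of each gene. Bars are means and error bars SD of 6 libraries, red bars carry the label of the gene, and each panel has its own linear axis from 0. The unlabelled windows upstream of RPS6 reach 32.3 RPKM, and the single high window of RPL19(2) reaches 9.22 RPKM.

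The brightest window of any ribosomal protein gene was window 2 of RPL19 on chromosome 19 (chr19:40330275-40333274). It had 1044, 1651 and 1730 reads at 5 months and 1339, 929 and 1415 at 16 months, or 9.22 ± 1.55 RPKM. The first window of the gene held 0.0164 ± 0.0136 RPKM and window 3 held 0.104 ± 0.0580. The deepest base of window 2 had a depth of 0.480 to 0.626 times its read count over the 6 libraries. Windows of these genes with at least 20 reads in all libraries numbered 25. Among them this ratio passed 0.5 in any library only in RPS6 window 1 and RPL19 window 2. In both, the lowest library was below 0.5. The ratio reached 9 in the sparsely covered window 2 of RPS29, so it is not a share of the window's own reads.

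Other bright windows were spread over the gene bodies. Window 2 of RPL3L had 189, 324, 188, 380, 209 and 157 reads and reached 1.65 ± 0.479 RPKM and window 2 of RPL28 reached 1.35 ± 0.493 RPKM. In all, 17 of the 180 windows averaged above 0.5 RPKM.

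RPL7A was embedded in a bright, gene-dense neighbourhood of the surfeit genes. Its flanks held 1.53 ± 0.527 RPKM and its labelled window 1.16 ± 0.388, and the difference did not pass the fold threshold (log2 ratio -0.36, SE 0.19). RPL29 (0.600 ± 0.202 RPKM) was also near its flanks, at a log2 ratio of 0.36 (SE 0.19). RPS7, a small subunit protein that also binds MDM2, had 0.298 ± 0.120 RPKM against 1.23 ± 0.240 in its flanks. RPS18 had 0.290 ± 0.126 against 0.640 ± 0.139 RPKM. RPS7 and RPS18 were called lower, at log2 ratios of -2.07 (SE 0.26) and -1.18 (SE 0.22).

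At the bottom stood RPS27 on chromosome 17, RPL23A, RPL14 and RPL30. The first windows of RPL14 and RPL30 had 0 to 4 reads in each library, and that of RPS27 on chromosome 17 had 0 to 2. A count of 0 in a library allows up to 3 reads, so the order among these 4 places cannot be read. RPS27 on chromosome 17 is another place with no shared neighbour.

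Within genes, the first window was set against the other windows of the same gene. Among 64 places with at least 2 windows, it was below the mean of the others in all 6 libraries in 32 places (50%, against 47.3% of all labelled genes) and above it in all 6 in 6 places (9.38%, against 15.1%). The median first window of these genes was 0.0461 RPKM and the median of their other windows 0.0755, where all labelled genes had 0.0484 and 0.0900 RPKM. The number of windows differs between the families, so genes of exactly 2 windows were also taken alone. The first window was the higher one in 14 of 40 such ribosomal protein genes (35%) and in 44.7% of all 3891 such genes.

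The paralogues were set beside their parent genes. RPL3L, a form of RPL3 known from striated muscle, had 0.739 ± 0.332 RPKM in its first window and RPL3 had 0.0905 ± 0.0273. RPL3L was at its flank level (log2 ratio 0.10, SE 0.20), and the upstream window, labelled NDUFB10, held 0.0281 RPKM. RPL3 was called lower than its flanks at -1.91 (SE 0.24). In every library the RPL3L window was above the RPL3 window, with the smallest values of RPL3L, 0.303 and 0.328 RPKM, in the 2 cultures of animal 3.

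The other pairs differed less. RPL26L1 had 0.102 ± 0.0345 RPKM and RPL26 had 0.0292 ± 0.0204. RPL7L1 had 0.0316 ± 0.0145 and RPL7 had 0.0738 ± 0.0495 RPKM. RPL22L1 had 0.0421 ± 0.0242 against 0.0643 ± 0.0395 RPKM for RPL22, and RPS27L, a target of p53, had 0.0174 ± 0.0167 against 0.0676 ± 0.0431 RPKM for RPS27 on chromosome 3. Library by library, RPL26L1 was above RPL26 in all 6 and RPS27L below RPS27 in all 6. RPL7L1 was below RPL7 in 4 and above it in 0, and RPL22L1 was below RPL22 in 3 and above it in 1. RPL26L1, RPL7L1 and RPS27L were called lower than their flanks and RPL22L1 was not.

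Of the genes at 2 places, RPL19 held 0.0471 ± 0.0185 RPKM in its first window on chromosome 7 and 0.0164 ± 0.0136 on chromosome 19. RPS15A held 0.0235 ± 0.0136 RPKM on chromosome 18 and 0.0123 ± 0.0125 on chromosome 25. RPS27 held 0.0676 ± 0.0431 RPKM on chromosome 3 and 0.00569 ± 0.00636 on chromosome 17. Without these 3 symbols the median first window of the remaining 70 places was 0.0486 RPKM.

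The ages were compared within animals by edgeR's quasi-likelihood test with the animal as a block, at the same thresholds, on all windows, on first windows and on whole genes. No ribosomal protein gene or window was called in any of these. Of 37 member windows tested, 0 were called by the quasi-likelihood test (background 0.185%, 194 of 104658 windows). Their lowest adjusted p was 0.394, and 4 of them had an unadjusted p under 0.05. Of 10 first windows tested, 0 were called (background 0%, of 5241), with 1 at an unadjusted p under 0.05. Of 36 whole genes tested, 0 were called (background 0.00584%, 1 of 17137), with 0 at an unadjusted p under 0.05. DESeq2's Wald test also called 0 in each, with 0 at an unadjusted p under 0.05. The other 143 windows, 66 first windows and 40 whole genes were below 1 CPM in more than 3 libraries and were not tested.

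Whole-gene differences, though none was called, leaned to the 5-month cultures. The median log2 fold change of the 36 genes was 0.29, where that of all genes tested was 0.02, and 32 of 36 were above 0 against 53.1% of all genes. Single windows did likewise, with 11 of 37 (29.7%, against 14.6% of all windows tested) higher at 5 months in all 3 animals and 1 (2.70%, against 11.4%) higher at 16 months in all 3. In 12 of the 36 genes (33.3%) the 5-month culture was higher in all 3 animals, against 9.97% of all genes tested, and in 1 (2.78%, against 4.52%) it was lower in all 3. The medians of the animals on the log2(CPM + 0.5) scale were 0.41, 0.21 and 0.18 for animals 1, 2 and 3, with 26, 25 and 25 of the 36 genes above 0. All genes tested had medians of -0.010, 0.10 and -0.012 in these animals. On counted reads without TMM factors the medians of the 36 genes were 0.31, 0.38 and -0.055, with 26, 30 and 15 genes above 0, so the direction in animal 3 turned with the scaling. The medians of all genes on that scale were -0.038, 0.33 and -0.23, and 27, 20 and 26 of the 36 genes were above them. On that scale 9 of the 36 genes (25%) were higher at 5 months in all 3 animals, against 9.22% of all genes, and 0 were lower in all 3, against 4.74%.

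The settings tested different numbers of ribosomal protein genes, 33 to 76. The median of those tested was above that of all genes under each alternative run, from 0.17 over 76 genes with no filter to 0.37 over 33 genes without animal 3. The number above 0 was 26 of 38 without animal 2, 40 of 54 at 0.5 CPM and 51 of 76 with no filter. The share of all genes above 0 is not given for these settings. A gene could pass the filter of 1 CPM in 3 libraries through those of 1 age alone. The lean of 32 of 36 is therefore that of the genes that passed, and it was weaker with the filter lowered or left out. Short genes as a whole leaned the same way, with a median of 0.09 and 16.1% higher at 5 months in all 3 animals among all genes of at most 3 windows. The figures for the 31 ribosomal protein genes of that length were 0.28 and 32.3%. Proteasome subunits had a median of 0.18 (7 of 29 higher in all 3 animals) and mitochondrial ribosomal proteins 0.06 (5 of 50). Translation factors with TOP transcripts had 0.11 (1 of 14) and ribosome biogenesis factors 0.05 (3 of 32). The ribosomal proteins named outside the rule had 0.36 (1 of 4). Whether the lean of the ribosomal protein genes goes beyond chance was not tested, and the typical SE of a single gene was 0.42.

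**Figure D5:**
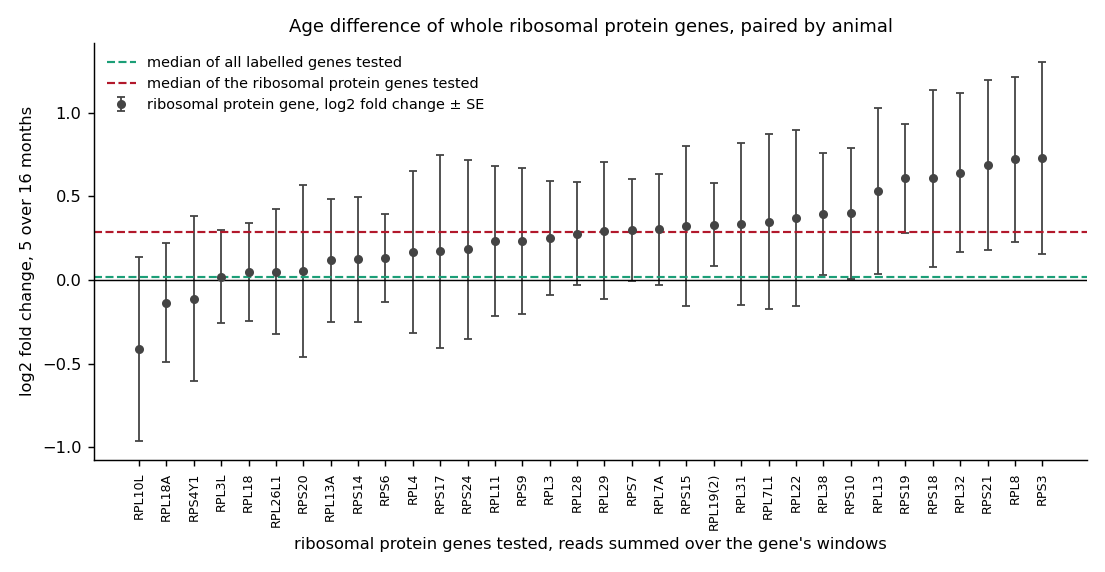
Log2 fold change of 5-month over 16-month cultures for 34 of the 36 whole ribosomal protein genes tested, paired by animal, with SE from edgeR's quasi-likelihood fit (y axis), ordered by value. Dashed lines are the medians of the 36 genes, 0.29, and of all labelled genes tested, 0.02. Values run from -0.41 for RPL10L to 0.73 for RPS3, and no gene was called.

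The gene with the lowest p was RPS19, mutated in Diamond-Blackfan anaemia. Its TMM-scaled CPM over the genes tested was 25.3, 21.2 and 17.0 at 5 months and 16.1, 12.5 and 12.8 at 16 months, a log2 difference of 0.61 (SE 0.32, unadjusted p = 0.0620 and adjusted p = 1 in edgeR's quasi-likelihood test). Its groups did not overlap. RPL8, near the peptidyl transferase centre, had 10.3, 3.06 and 8.24 CPM at 5 months and 2.86, 2.58 and 7.90 at 16 months (log2 fold change 0.72, SE 0.49). Its difference was largest in animal 1, and the groups overlapped.

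Among first windows RPS18, RPS7, RPL7A and RPL10L were among the 5 with the lowest p, and the lowest adjusted p of the 10 first windows tested was 0.529 in edgeR's quasi-likelihood test. The RPS18 window had 49, 43 and 48 reads at 5 months and 72, 15 and 31 at 16 months, from libraries of unequal depth. RPS18 had a log2 fold change of 0.53 (SE 0.34), RPS7 of 0.45 (SE 0.33) and RPL7A of 0.25 (SE 0.20). RPL10L had -0.44 (SE 0.37), which came from animal 1 and turned to 0.056 without it.

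Without animal 2, 3 whole genes had an adjusted p below 0.1 at less than a 2-fold change, among them RPL8 (log2 fold change 0.91) and RPL19 on chromosome 19 (0.49). Without animal 3, window 3 of RPS19 did so (0.79). None of these passed the fold threshold. In the fit without animal 2, 6 of 38 ribosomal protein genes had an unadjusted p under 0.05, beside 4507 of 17309 genes in all. An adjusted p below 0.1 was reached there by 13.6% of all genes, and of the 336 genes called, 293 were lower at 5 months. Without animal 3, 3.19% of all windows tested had an adjusted p below 0.1.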

How the data were processed

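MIRA-Seq libraries of 6 fibroblast cultures (3 animals at 5 and 16 months) were used. The authors trimmed reads, aligned them to UMD v3.1 with NextGENe 2.3.4 and deposited raw read counts of sequential 3 kb windows. The deposited files also give the mean and highest depth of coverage of each window, a signal that the authors left unscaled, of which the highest depth over the reads was taken. How PCR copies and multiply mapped reads were handled is not stated in the labels, headers or methods. No genome of this build was used, so positions, labels and coding exon numbers are those of the files. Gene names and neighbours were compared with RefSeq (ARS-UCD2.0).

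Windows with the same label were joined into a place unless over 100 windows apart. Tests were run in R 4.3.3 with edgeR 4.0.16 (DESeq2 1.42.0 as an alternative), tables in Python 3.11.15. Features with at least 1 CPM in at least 3 libraries were tested, with TMM factors for age and region length as offset for flanks, and p-values adjusted over all features. Each SE is the absolute log2 value over the square root of its F statistic. The pairing comes from the animals: the 2 libraries of animals 1, 2 and 3 deviated from their age means together, with correlations of 0.290, 0.544 and 0.710 over the windows tested. The fits were tested on simulated data with no animal effect and a fixed dispersion. Of changes of 2-fold by age, 38% were called in windows, 49.5% in first windows and 50% in whole genes. Of those of 4-fold, 99.5%, 100% and 99.5% were called. A true 2-fold change is called only where its estimate also reaches 2-fold, which limits the shares at 2-fold. The simulated dispersion was the same for the 3 age comparisons. In the data the median SE of all whole genes tested was 0.318, against 0.255 for windows, and that of the ribosomal protein genes was 0.42. The shares may therefore overstate what the whole-gene test could detect. The flank test called 47% at 2-fold and 96% at 4-fold. A floor of 3 reads for a count of 0 covers counting error only.

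The members and lists were chosen with earlier results of these data known. Genes were named by rule: any called by age, the 5 lowest p of first windows by age, the 8 highest and 4 lowest first windows, the 4 largest ratios to flanks each way, paralogues with parents, symbols at 2 places and the 5 brightest windows, of which 2 genes are not reported here; RPS19, RPL8 and the genes of single leave-one-out fits were named after their values were seen. Alternatives were other tests, scalings, filters, flanks, start windows and leaving out animals.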

Additional observations from a re-analysis of the deposited data

How the results depend on the processing

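The median first window of the ribosomal protein genes moved from 0.0474 to 0.0776 RPKM with counted in place of matched reads (all genes 0.0799), to 0.0814 with TMM factors (all genes 0.0821) and to 0.152 as a mean (all genes 0.214). Leaving out each animal gave 0.0417 to 0.0541. Genes with a first window below their flanks numbered 49, 45 to 50 without each animal, and 22 of 48 tested (45.8%, all genes 37.3%) with flank windows of other genes left out. Genes above their flanks numbered 4, 4 to 6 without each animal, 8 with those flank windows left out (16.7%, all genes 25.9%) and 7 with the downstream flank alone (10.6%, all genes 19%). Adding the upstream window left RPL13A and RPL36A below the fold threshold. The number of ribosomal protein features called by age was 0 in windows, first windows and whole genes under all alternatives run. Over all features the counts did move. Whole genes called numbered 1, and 0 to 336 over the alternatives, with 336 (293 lower at 5 months) without animal 2. First windows called numbered 0, and 0 to 165, with 165 without animal 3, 41 at 0.5 CPM and 26 with the likelihood-ratio test. Windows called numbered 194, then 14, 68 and 1278 without animals 1, 2 and 3, 15 with DESeq2, 25 with TMM factors from all windows, 99 by library size only, 96 at 0.5 CPM, 2 with no CPM filter and 340 with no fold threshold. The age difference of RPL10L, -0.44 on the log2 scale, ran from -0.67 without animal 2 to 0.056 without animal 1. Without the replicate block 0 ribosomal protein features were called by age, 0 windows were called in all, and 48 and 4 genes were below and above their flanks. Counts under about 10 reads in many first windows limit what could be seen. The values of each animal on counted reads without TMM factors, and those of genes of exactly 2 windows, were chosen after seeing the data.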

Other observations

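Outside the rule, 4 symbols of ribosomal proteins stood on the X chromosome in 8 windows, and 0 windows on the Y chromosome or on unplaced sequence matched. The first window of RPL10, the parent of RPL10L, held 50, 92 and 51 reads at 5 months (animals 1, 2 and 3) and 105, 69 and 54 at 16 months, or 0.483 ± 0.138 RPKM (SD, n = 6). RPL39 held 0.306 ± 0.127 RPKM, RPS4X 0.128 ± 0.0716 RPKM and RPL36A 0.0880 ± 0.0440 RPKM. Each of these was above the median first window of the places on chromosomes 1 to 29. They were not compared with other labelled genes of the X chromosome, so this cannot be read as particular to ribosomal protein genes. RPS4Y1, the symbol of a Y-linked gene in other mammals, labelled 6 windows on chromosome 23, where its first window held 0.0573 ± 0.0373 RPKM.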
